A study of Homo sapiens with 10 samples.

Results

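Rb peaks were examined at the promoters of 10 genes that encode Rb itself and the proteins that work with it, out of 19970 protein-coding genes annotated on the autosomes and chromosome X. The genes were RB1, RBL1 and RBL2 (the pocket proteins Rb, p107 and p130), TFDP1 and TFDP2 (the E2F dimerization partners DP1 and DP2), LIN9, LIN52 and LIN54 (subunits of the MuvB core), MYBL2 (B-Myb) and FOXM1. They were chosen by name, and a peak was assigned to a gene where it overlapped the window from 2000 bp upstream to 500 bp downstream of any of its GENCODE v44 transcript starts.

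Rb was mapped by CUT&RUN, where a nuclease guided by the antibody cuts out the DNA at sites of binding, in OVCAR-3 and Kuramochi cells. Both are established lines of high-grade serous ovarian carcinoma and were labelled WT in genotype. Each line received INX-315 (an inhibitor of CDK2, 300 nM) or an equal volume of DMSO for 2 days, with 2 Rb libraries per line and treatment and 1 IgG2a library per line from DMSO cells. The 8 Rb libraries held 5221 to 17281 peaks, and their mean coverage ranged from 0.216 fragments per base (Kuramochi INX-315 replicate 2) to 0.501 (OVCAR-3 DMSO replicate 2).

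Pocket proteins restrain transcription of cell cycle genes by binding E2F transcription factors, which contact DNA as dimers with a DP protein. Kinases that include CDK2 phosphorylate the pocket proteins and release them from E2F. The MuvB core joins p107 or p130 with E2F and DP in the repressive DREAM complex, and in proliferating cells joins B-Myb and then FOXM1 to activate mitotic genes. Several of these genes are themselves known E2F targets.

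The sequences behind the peaks are shown for 7 members, chosen because their promoters carry an E2F-like match, or because the results on gained promoters (RBL2) and on the lines (MYBL2) turn on them. An 8-letter E2F-like motif (TTTCCCGC, TTTCGCGC, TTTGCCGC or TTTGGCGC on either strand) and a 7-letter form without the first T were searched. The stretches are in hg38 and are written on the strand of the gene, without annotated 5′ untranslated sequence except in the 30-base LIN9 stretch. Capitals mark the 8-letter match, or in LIN54, which has none, the 7-letter match. They lie at chr20:37095998-37096147 (RBL1, minus strand), chr13:113584553-113584752 (TFDP1, plus), chr14:74084756-74084955 (LIN52, plus), chr4:83012621-83012791 (LIN54, minus), chr1:226309061-226309090 (LIN9, minus), chr20:43666869-43667018 (MYBL2, plus) and chr16:53434835-53435035 (RBL2, plus).
RBL1: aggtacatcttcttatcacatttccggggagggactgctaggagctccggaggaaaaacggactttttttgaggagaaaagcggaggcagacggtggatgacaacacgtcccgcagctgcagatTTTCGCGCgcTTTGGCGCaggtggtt
TFDP1: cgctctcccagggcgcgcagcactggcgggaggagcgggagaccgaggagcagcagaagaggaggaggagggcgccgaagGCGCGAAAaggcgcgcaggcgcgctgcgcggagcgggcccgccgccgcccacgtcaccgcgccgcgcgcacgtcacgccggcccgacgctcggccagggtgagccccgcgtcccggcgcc
LIN52: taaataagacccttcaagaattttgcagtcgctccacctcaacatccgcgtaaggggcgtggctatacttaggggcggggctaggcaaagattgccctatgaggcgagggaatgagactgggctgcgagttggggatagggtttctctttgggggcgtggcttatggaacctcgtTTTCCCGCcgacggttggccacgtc
LIN54: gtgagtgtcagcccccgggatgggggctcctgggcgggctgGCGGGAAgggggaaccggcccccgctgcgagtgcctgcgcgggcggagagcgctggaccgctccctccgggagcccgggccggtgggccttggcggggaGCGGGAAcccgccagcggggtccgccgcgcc
LIN9: cacccccccctTTTCCCGCctgctgcttgc
MYBL2: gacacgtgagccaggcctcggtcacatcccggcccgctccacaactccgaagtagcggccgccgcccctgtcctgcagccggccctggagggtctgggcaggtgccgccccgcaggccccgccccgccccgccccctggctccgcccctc
RBL2: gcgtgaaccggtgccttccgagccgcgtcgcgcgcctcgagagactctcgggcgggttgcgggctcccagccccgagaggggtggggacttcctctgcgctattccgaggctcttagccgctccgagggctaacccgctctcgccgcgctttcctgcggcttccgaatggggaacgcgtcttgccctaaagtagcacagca

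RBL1 carried a pair of 8-letter matches in its last 26 bases before the start, TTTCGCGC at -26 and TTTGGCGC at -16 bp from it. Relative to the median RBL1 summit they lay at -206 and -196 bp, negative being upstream, so the pair was not under the summit. The TFDP1 match lay at -120 bp on the opposite strand, 44 bp upstream of the median summit. LIN52 carried TTTCCCGC at -25 bp, 130 bp downstream of the median summit. In LIN54 a 7-letter match lay 14 bp downstream of the median summit and another 113 bp downstream of it. The LIN9 match lay 85 bp past the start and 48 bp upstream of the median summit. The printed MYBL2 and RBL2 stretches held no match of either form. The MYBL2 stretch held the median summit but not most summits of the DMSO libraries. Those of Kuramochi DMSO (8 and 60 bp past the start) and OVCAR-3 DMSO replicate 1 (31 bp past it) lay downstream of the stretch.

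In RefSeq promoters (GRCh38.p14, 250 bases before to 50 after the start), 8 of the 10 members were matched and RB1 and FOXM1 were not. The 8-letter motif was present in 3 of the 8 (RBL1, TFDP1 and LIN52), and in 5.49% of the 15314 promoters of protein-coding genes. The 7-letter form was present in 4 of the 8, against 20.8% of all promoters. CCAAT, the NF-Y motif, was present in 3 of the 8 against 42.5%, and TTTGAA, the CHR element of late cell cycle genes, in 4 of the 8 against 15.9%. Within the 201 bases around the median summit, the 8-letter motif was found at 2 of 7 members (TFDP1 and LIN9), against 6.86% of 3661 promoters with peaks in all libraries. In those windows the 7-letter form was found at 3 of 7 members against 24.7%, CCAAT at 1 against 24.2%, and TTTGAA at 0 against 4.45%.

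Which member promoters held Rb under DMSO, and which did so after CDK2 inhibition, was read from the presence of a peak in each library. Rb occupied 9 of the 10 promoters in all 8 libraries, and the exception was RBL2, which had no peak in the 4 DMSO libraries and a peak in all 4 INX-315 libraries. Across all protein-coding genes, 18.8% (3762 genes) had a promoter peak in all 8 libraries. Under DMSO the count was 9 of 10 members in each line, against 26.8% of genes in OVCAR-3 and 24.8% in Kuramochi. Under INX-315 it was 10 of 10 in each line, against 55.5% and 53.2%. A promoter was called gained where a peak was listed in each INX-315 library of a line and in none of its DMSO libraries. By that rule 1 of the 10 members was gained in each line, against 16.2% of genes in OVCAR-3 and 14.0% in Kuramochi, and 5.56% of genes were gained in both lines. No member was lost. Neither IgG2a library had a peak at a member promoter.

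The strength of a peak was taken as its summit height, the fragments over the summit base divided by the mean coverage of that library. It is a density per base, so that peaks of different genes and widths can be set side by side. The 9 members with peaks in all libraries differed widely under DMSO, from 17.9 (TFDP1 in OVCAR-3 replicate 2) to 174 (RBL1 in Kuramochi replicate 2). The plot of heights by library shows RBL1 above the other members in every DMSO library.

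**Figure D1:**
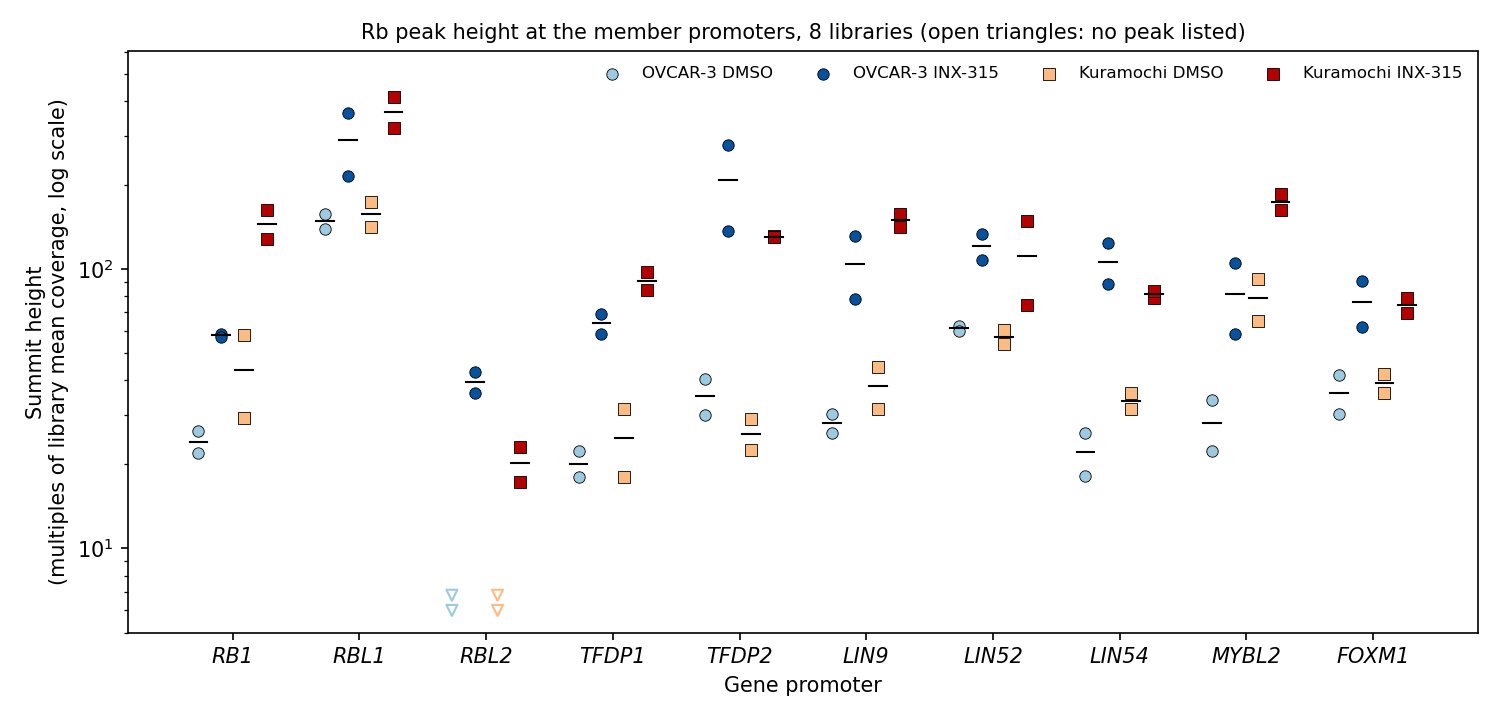
Summit height of the Rb peak at each member promoter (vertical axis, multiples of the mean coverage of the library, log scale) in the 8 Rb libraries, with 2 points per group, bars at group means and open triangles, placed below the scale of the data, where no peak was listed. Within each line both INX-315 points lie above both DMSO points at the 9 members with peaks in all libraries, and RBL1 is the tallest under DMSO.

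The pocket protein genes spanned the whole range. RBL1 encodes p107, a partner of the repressor E2Fs, and had the strongest Rb peak of the family, at chr20:37095140-37096585. In OVCAR-3 its summit heights of 139 and 158 with DMSO compared with 215 and 361 with INX-315. In Kuramochi those of 142 and 174 compared with 319 and 412. The INX-315 libraries were all higher than the DMSO libraries, without overlap in either line. By fold enrichment the RBL1 peak ranked at the 98.4th percentile or above of its library's own list in each of the 8 libraries, and it rested on 63 to 152 fragments. The INX-315 lists were longer than the DMSO lists, so ranks place a peak within its own list and do not measure a change between treatments. Its width barely moved, at 1009 to 1332 bp under DMSO and 1069 to 1329 bp under INX-315.

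RB1 encodes Rb itself, so this is Rb on its own promoter, at chr13:48303090-48304514. The height was 26.3 and 21.9 in OVCAR-3 DMSO cells against 58.7 and 57.1 under INX-315, and 29.2 and 57.9 in Kuramochi DMSO cells against 128 and 162 under INX-315. The groups did not overlap, although the 2 Kuramochi DMSO libraries lay far apart. In rank within the list, RB1 stood at the 66.6th to 78.6th percentile under DMSO and the 68.1st to 75.5th under INX-315 in OVCAR-3, and at the 51.4th to 84.3rd and the 90.1st to 91.3rd in Kuramochi. A second peak inside the RB1 gene was listed in 6 of the 8 libraries and lay in the promoter window of another annotated gene. No library listed a peak inside any of the 10 genes that fell outside all promoter windows.

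RBL2 encodes p130, the pocket protein of the DREAM complex in quiescent cells. Its peaks under INX-315 reached 35.9 and 42.8 in OVCAR-3 (11 and 18 fragments) but 17.3 and 23.2 in Kuramochi (7 and 5 fragments). They ranked at the 52.9th and 57.7th percentile in OVCAR-3 and at the 28.6th and 21.3rd in Kuramochi, so they were of middle or low rank among the peaks of those libraries. The summits lay 358 to 472 bp downstream of the start, past the first exon of the canonical transcript and in its first intron, in the RBL2 stretch printed above or just before it. In the 4 DMSO libraries the lowest peaks listed over an average background rested on 4 or 5 fragments, a height of 9.97 to 11.2. Among genes with peaks in all libraries, the median rise under INX-315 was 1.78 on the log2 scale in OVCAR-3 and 1.51 in Kuramochi. Whether an RBL2 peak lower by that much would have been listed under DMSO was not tested. The INX-315 lists were longer, and with equal numbers of top peaks per library within a line (6162 in OVCAR-3 and 5221 in Kuramochi) RBL2 was no longer gained in either line.

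The DP genes showed the steepest rise and a more ordinary one. TFDP2 encodes DP2, and its peak at chr3:142148513-142149833 had heights of 40.4 and 29.9 in OVCAR-3 DMSO cells and 137 and 278 under INX-315. In Kuramochi the heights of 22.5 and 29.0 in DMSO compared with 131 and 130 in treated cells. Within its own lists TFDP2 stood at the 59.8th to 87.7th percentile under DMSO and at the 91.1st to 99.0th under INX-315. The peak also widened, from 280 to 651 bp under DMSO to 919 to 1290 bp under INX-315. TFDP1, which encodes DP1, had heights of 22.2 and 17.9 against 58.7 and 69.0 in OVCAR-3, and of 18.0 and 31.6 against 84.0 and 97.3 in Kuramochi, at chr13:113584150-113585503. Its peaks were 458 to 587 bp wide under DMSO and 1067 to 1300 bp under INX-315. Peaks were wider in general under INX-315. The median width over all listed peaks was 482 to 559 bp in the DMSO libraries and 619 to 775 bp in the INX-315 libraries.

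Of the MuvB subunits, LIN54 is the one that contacts the CHR element, LIN9 binds B-Myb, and LIN52 links the core to pocket proteins or B-Myb. LIN9, at chr1:226308461-226310014, had heights of 30.3 and 25.9 in DMSO against 78.3 and 131 in treated OVCAR-3 cells, and of 31.5 and 44.8 against 141 and 157 in Kuramochi. LIN52, at chr14:74084014-74085663, already had 62.7 and 59.8 in OVCAR-3 DMSO cells against 108 and 133 under INX-315, and 53.9 and 60.6 in Kuramochi DMSO cells against 74.1 and 148. Its 2 Kuramochi INX-315 libraries differed by 2-fold, and the lower of them lay just above the DMSO libraries. After RBL1, LIN52 had the highest DMSO level of the family in OVCAR-3 (89.1st and 91.4th percentile of those lists).

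LIN54 carried its main peak away from the canonical start, at chr4:83012070-83013462, with summits from -1982 to -1838 bp, 82 to 226 bp downstream of the start of other annotated LIN54 transcripts. The heights were 18.2 and 25.9 against 88.1 and 124 in OVCAR-3, and 35.9 and 31.6 against 79.0 and 83.4 in Kuramochi. The OVCAR-3 DMSO replicate 1 peak was the weakest member peak by rank, at the 3.34th percentile, and was lost when only peaks with q of at most 0.001 were kept, which left 8 of 10 members bound under DMSO in OVCAR-3. A second, lower peak lay 54 to 278 bp downstream of the canonical start. It was listed in all 4 INX-315 libraries, with heights of 19.6, 35.7, 27.2 and 32.4, and in 1 DMSO library (Kuramochi replicate 2, 10.5).

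MYBL2 and FOXM1 encode the activators that succeed each other on the MuvB core. The MYBL2 peak, at chr20:43666546-43667707, had heights of 22.2 and 33.9 in OVCAR-3 DMSO cells and 58.7 and 105 under INX-315, and of 65.2 and 92.2 in Kuramochi DMSO cells and 163 and 185 under INX-315. Kuramochi DMSO cells therefore stood above the level of the lower OVCAR-3 INX-315 library. In rank, MYBL2 was at the 91.7th and 93.7th percentile in Kuramochi DMSO cells and at the 40.0th and 76.3rd in OVCAR-3 DMSO cells. FOXM1, at chr12:2876260-2878619, had heights of 30.3 and 41.9 against 62.0 and 90.4 in OVCAR-3, and of 35.9 and 42.1 against 79.0 and 69.5 in Kuramochi. The FOXM1 heights of the lines overlapped at each treatment, and the peak ranked at the 82.8th to 90.8th percentile with DMSO and at the 74.1st to 87.2nd with INX-315.

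**Figure D2:**
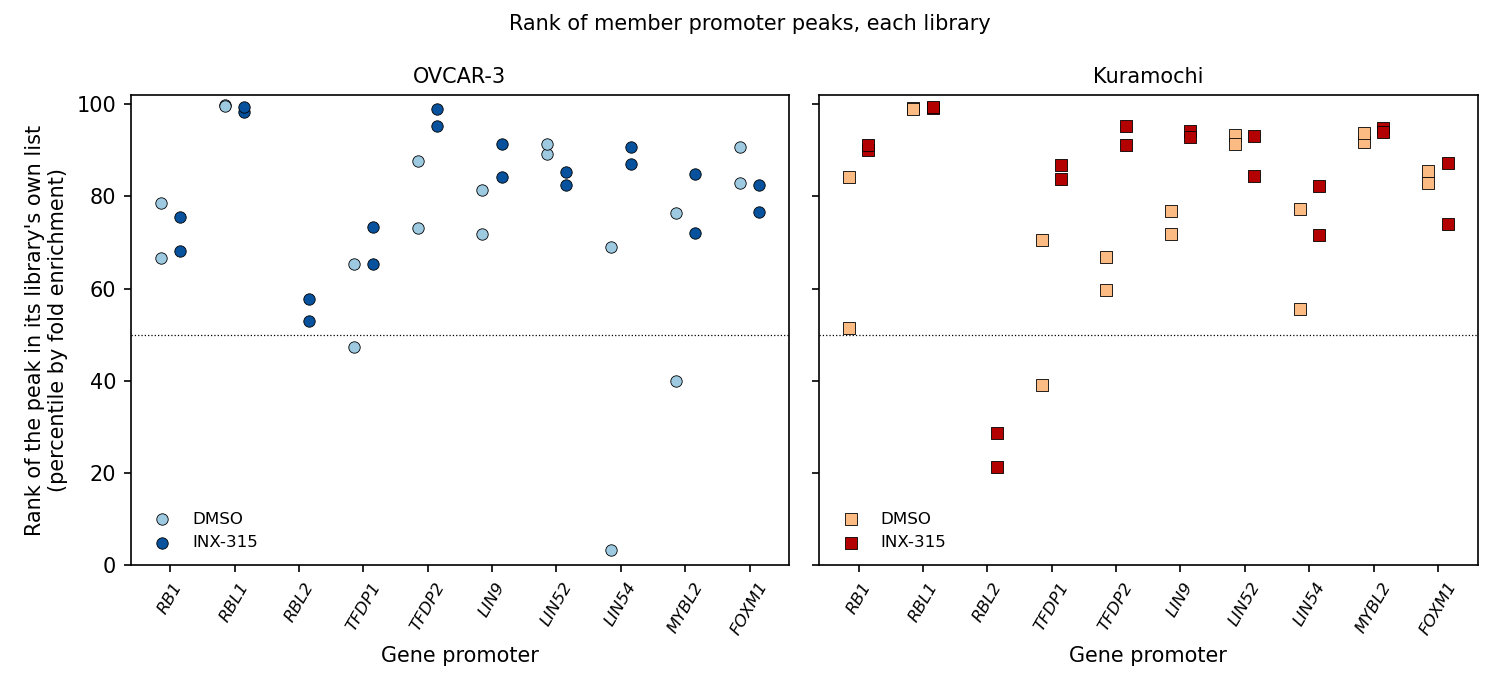
Rank of each member's promoter peak within the list of its own library (vertical axis, percentile by fold enrichment, 100 being the strongest peak) in OVCAR-3 (left) and Kuramochi (right), with 1 point per library and a dotted line at the 50th percentile. Lists under INX-315 are longer, so positions are not compared between treatments. RBL1 stays near the top of every list, and RBL2 was listed in the INX-315 libraries alone, between the 21.3rd and the 57.7th percentile.

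In order of mean DMSO height in OVCAR-3, RBL1 was followed by LIN52, FOXM1, TFDP2, LIN9, MYBL2, RB1, LIN54 and TFDP1. RBL1 did not overlap LIN52, and LIN52 did not overlap FOXM1. From FOXM1 down to TFDP1, the libraries of each gene overlapped in range with those of the next gene. In Kuramochi the order was RBL1, MYBL2, LIN52, RB1, FOXM1, LIN9, LIN54, TFDP2 and TFDP1. There RBL1 and MYBL2 did not overlap, MYBL2 and LIN52 did not overlap, and the neighbours from LIN52 down overlapped except where LIN54 (31.6 and 35.9) exceeded TFDP2 (22.5 and 29.0). Heights were not corrected for local background, which differed between the lines at some members. At RB1 it was 1.00 times the library mean in OVCAR-3 and 2.12 to 2.40 times in Kuramochi. At LIN52 it was 2.25 to 3.19 times in OVCAR-3 and 1.11 to 1.17 times in Kuramochi.

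The peaks of most members sat close to the transcript start, but on different sides of it. Summits lay upstream of or at the start for RB1 (-253 to 0 bp), on both sides for TFDP1 (-232 to 9 bp), MYBL2 (-160 to 60 bp), LIN9 (-225 to 166 bp) and LIN52 (-309 to 97 bp), and downstream for RBL1 (95 to 213 bp), TFDP2 (130 to 277 bp) and FOXM1 (39 to 218 bp). A single upstream MYBL2 peak with a summit at -2161 bp and a height of 16.3 was listed in OVCAR-3 INX-315 replicate 1. Some of these peaks cannot be assigned to the member alone. The RB1 peak was shared in all 8 libraries with the divergent lncRNA RB1-DT, whose nearest start is 24 bp away, and the RBL1 peak with an unnamed lncRNA (ENSG00000269846). The LIN52 peak was shared with ALDH6A1, a head-to-head gene 464 bp away that encodes an aldehyde dehydrogenase, and the FOXM1 peak with RHNO1 (25 bp) and TULP3 (49 bp).

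**Figure D3:**
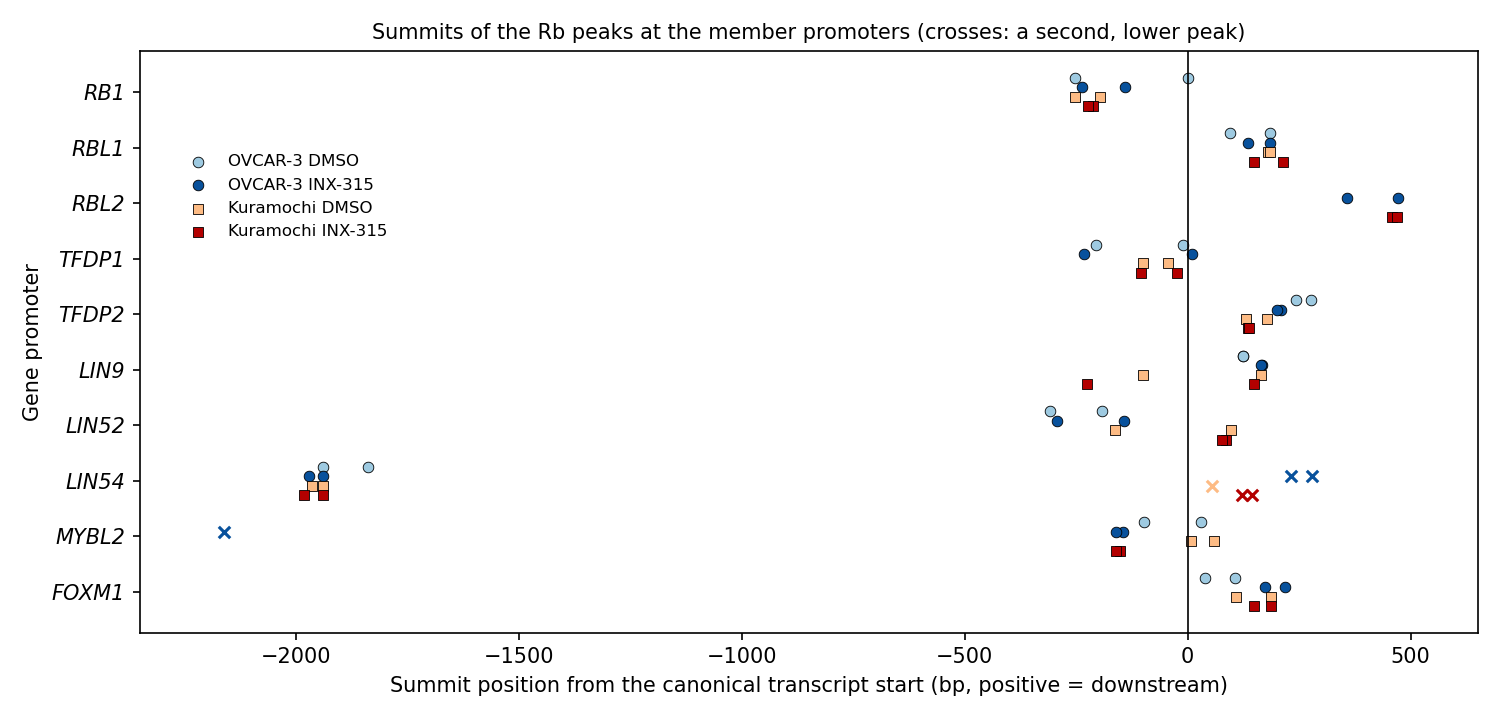
Position of the peak summit relative to the canonical transcript start (horizontal axis, bp, positive being downstream) for each member, with 1 point per library and crosses for a second, lower peak. The main LIN54 summits cluster between -1982 and -1838 bp and its second peak sits just downstream of the start, whereas RBL2 summits lie at 358 to 472 bp.

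Whether the height at each promoter changed with CDK2 inhibition was tested with limma in a single fit over the 3663 genes with recovered heights in all 8 libraries, which included 9 members and left out RBL2. Rb peaks were higher under INX-315 at all 9 members in the average over both lines, where 99.7% of all fitted genes were called higher and 0 lower. They were also called higher at all 9 in OVCAR-3 alone, against 97.5% of genes, and at all 9 in Kuramochi alone, against 93.1%. These counts by line were less stable. On the fold enrichment scale 5 members were called in OVCAR-3 and 4 in Kuramochi. Leaving out 1 library gave 6 to 9 in OVCAR-3, with 6 without DMSO replicate 1 or INX-315 replicate 2 of that line, and 4 to 9 in Kuramochi, with 4 without Kuramochi INX-315 replicate 2 and 6 without Kuramochi DMSO replicate 1. The heights of the treatment groups did not overlap, INX-315 being higher, at 9 of 9 members in each line, against 99.5% of genes in OVCAR-3, 97.7% in Kuramochi and 97.2% in both. A call of higher therefore did not set the members apart, since nearly every promoter with peaks throughout had it.

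The size of the increase did vary among members. TFDP2 rose by 2.42 on the log2 scale (SE 0.31, 5.35-fold, Benjamini-Hochberg adjusted p = 2.5e-13), and 98.8% of all fitted genes rose by the same or less. LIN9 rose 3.78-fold (log2 1.92), TFDP1 3.48-fold (log2 1.80), LIN54 3.40-fold (log2 1.77), RB1 2.91-fold (log2 1.54) and MYBL2 2.53-fold (log2 1.34). The smallest increases were at RBL1 (log2 1.06, SE 0.27, adjusted p = 9.4e-05), FOXM1 (log2 1.00, SE 0.31, adjusted p = 0.0011) and LIN52 (log2 0.92, SE 0.31, adjusted p = 0.0028). These SEs and p-values rest on a spread shared over all fitted genes. They therefore do not measure how far the 2 libraries of a group lay apart at a given member. The median over all fitted genes was 1.64 and that over the 9 members 1.54. Heights on the scale of fold enrichment over local background kept 7 of the 9 calls, and LIN52 (adjusted p = 0.068) and FOXM1 (adjusted p = 0.069) no longer passed. LIN52 also did not pass without Kuramochi INX-315 replicate 2 (log2 0.67, adjusted p = 0.084).

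Because the general rise was as large as that of the members, heights were also centred on the median gene of each library, which asks how a promoter moved relative to the others. On that scale TFDP2 was higher under INX-315 by 0.74 (log2, SE 0.19, adjusted p = 0.0067), 1 of 9 members against 5.65% of genes. RBL1 (-0.62, SE 0.11, adjusted p = 0.00035), LIN52 (-0.76, SE 0.18, adjusted p = 0.0043) and FOXM1 (-0.68, SE 0.19, adjusted p = 0.014) were lower, 3 of 9 members against 11.1% of genes. The relative changes of LIN9 (0.24), TFDP1 (0.12), LIN54 (0.09), RB1 (-0.14) and MYBL2 (-0.34) did not pass, with intervals from -0.13 to 0.61, -0.31 to 0.54, -0.33 to 0.50, -0.55 to 0.27 and -0.69 to 0.005. Thus, in the average over both lines, RBL1, LIN52 and FOXM1 gained in height over the library mean but lagged behind the median promoter. By line (limma, centred), RBL1 (-0.93, adjusted p = 0.00048) and LIN52 (-0.88, adjusted p = 0.031) were called lower in OVCAR-3. FOXM1 (-0.77, adjusted p = 0.073) was not called there. In Kuramochi none of them was called (RBL1 -0.31, LIN52 -0.64, FOXM1 -0.59, adjusted p of 0.13 to 0.26). TFDP2 was called higher in neither line (0.64 and 0.84, adjusted p = 0.13 and 0.056). Mean coverage ranged from 0.380 to 0.501 under DMSO and from 0.216 to 0.421 under INX-315, and the lists held 5221 to 8794 and 13031 to 17281 peaks, and the part of depth and list length in the general rise was not tested.

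**Figure D4:**
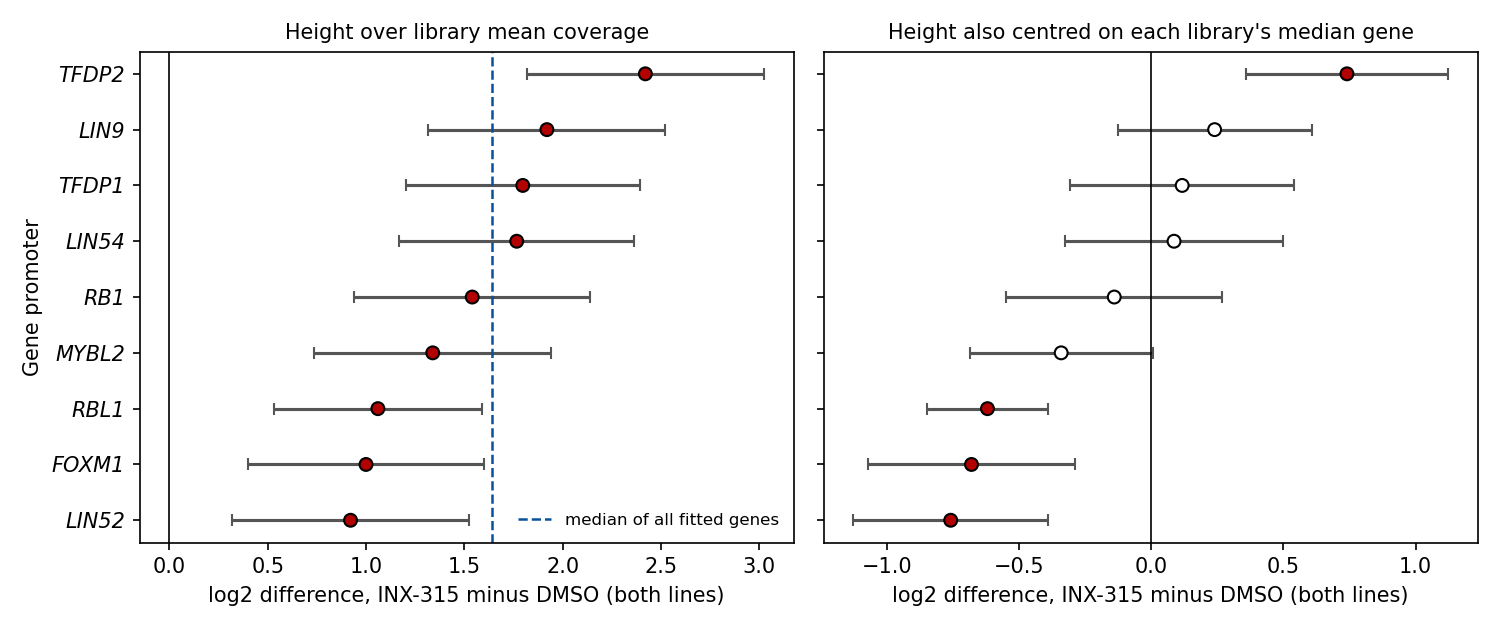
Difference in log2 summit height between INX-315 and DMSO, averaged over both lines, for the 9 fitted members, with 95% confidence intervals from limma and filled points where the adjusted p is below 0.05. On the left, heights over the library mean coverage rise at all 9 members, with a dashed line at the median of all fitted genes (1.64). On the right, after centring on the median gene, TFDP2 is higher, RBL1, FOXM1 and LIN52 are lower and 5 members do not pass.

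The lines were compared in their response and in their starting level. The difference between the INX-315 effects in Kuramochi and OVCAR-3 passed at 0 of 9 members and at 0% of fitted genes (limma, with 4 genes higher and 97 lower at an unadjusted p below 0.05). Among members it ranged from -0.997 at LIN54 (95% interval -2.19 to 0.20) to 0.54 at RB1 (-0.66 to 1.74), both with an adjusted p of 0.998. Under DMSO, MYBL2 was higher in Kuramochi than in OVCAR-3 by 1.50 on the log2 scale (SE 0.44, 2.82-fold, adjusted p = 0.014), with both Kuramochi libraries above both OVCAR-3 libraries. It was the only 1 of 9 members called higher, against 5.95% of genes, and 0 members were called lower, against 1.45%. After centring on the median gene, MYBL2 stayed higher (log2 1.18, adjusted p = 0.00044) and TFDP2 was lower in Kuramochi (log2 -0.76, adjusted p = 0.029), and the calls over all genes turned from 218 higher and 53 lower to 496 higher and 573 lower. The MYBL2 call was lost in 5 of the 8 fits that left out 1 library, namely either OVCAR-3 DMSO library, Kuramochi DMSO replicate 2 or either Kuramochi INX-315 library, with an adjusted p of 0.053 to 0.42 (limma).

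The genes whose heights most resembled a member's over the 8 libraries were found by the root mean square difference of log2 height. For RB1 these were PAFAH1B3 and PRR19, both at 0.188, and for MYBL2 TMEM160 (0.198) and HSPH1 (0.200). For FOXM1 they were PEA15 (0.136) and SHC1 (0.206). This measure describes like heights in these libraries only.

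The remaining subunits and partners of these complexes formed a list of 17 genes. Of these, 13 had peaks in all 8 libraries, against 18.8% of all genes. Under DMSO 14 were bound in OVCAR-3 and 13 in Kuramochi, against 26.8% and 24.8% of genes, and under INX-315 15 in each line, against 55.5% and 53.2%. E2F5, a repressor E2F, was the 1 gene of the list gained in each line, against 16.2% of genes in OVCAR-3 and 14.0% in Kuramochi. E2F4, the main DREAM E2F, had a peak in 2 of 8 libraries and TFDP3 in none. These last were named after their values were seen. The limma fit held 12 of the 17, and all 12 were called higher under INX-315 in the average over both lines, by 0.80 to 2.45 on the log2 scale with a median of 1.45. Of all fitted genes 99.7% had that call, with a median of 1.64. In Kuramochi alone LIN37 (log2 0.33, adjusted p = 0.44) and E2F8 (log2 0.65, adjusted p = 0.14) did not pass, and the other 10 did. The 12 included, in the average, LIN37 (0.94) and RBBP4 (1.21), the other MuvB subunits, and E2F1 (1.44), E2F2 (1.30) and E2F3 (1.46), the activator E2Fs.

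The mitotic genes known as targets of B-Myb-MuvB and FOXM1 formed a list of 12. Of the 12, 3 were bound under DMSO in OVCAR-3 and 4 in Kuramochi, against 12 and 10 under INX-315. The shares of all genes with DMSO were 26.8% and 24.8%, and with INX-315 they were 55.5% and 53.2%. In OVCAR-3, 6 of the 12 were gained (against 16.2% of all genes), among them CDC20 (an activator of the anaphase-promoting complex) and the kinases PLK1, AURKB and BUB1. In Kuramochi 3 were gained (against 14.0%), the cyclin gene CCNB2, AURKB and the kinesin gene CENPE, the last of which was named after its values were seen. The 3 genes with peaks in all 8 libraries were AURKA, TOP2A and UBE2C, and all 3 were called higher under INX-315 (limma), by 1.78, 1.22 and 1.53 on the log2 scale, a call that 99.7% of all fitted genes had with a median of 1.64. The gained calls of this list, as of RBL2, come from lists that were longer under INX-315.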

How the data were processed

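CUT&RUN libraries for Rb and IgG2a from OVCAR-3 and Kuramochi cells were used as deposited peak lists. According to the methods, the authors trimmed reads with BBDuk, aligned them to hg38 with Bowtie2 2.3.4.1, removed blacklisted and mitochondrial regions, kept duplicates and called peaks for each library with MACS2 2.2.7.1 on paired-end fragments (q of 0.05) with IgG as control. The deposited columns used were the fold enrichment, the -log10 p and -log10 q values. Fold enrichment is a ratio at the summit over local background with the same constant added to both terms. It is therefore smaller than the plain ratio, most so where the background is low. The deposited integer score column was not used.

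Fragments at each summit and the local background were solved from the fold enrichment and the -log10 p-value (98.6% or more of the peaks of each library, relative tolerance 3e-05). The lowest background of a library is its mean coverage, and summit height is fragments divided by it. The precision of a height is limited by its fragments, and these count errors exclude any effect of amplification duplicates. Where a gene had several peaks, the one with the highest fold enrichment was used. Genes bound in all 8 libraries (3762) were fitted where every height was recovered (3663, with 99 left out) with limma 3.58.1 in R 4.3.3 on log2 height, with 4 group means, a variance trend and Benjamini-Hochberg adjustment at 0.05. Without centring, the fit took the spread of a gene from that trend, shared over all genes, and not from its own libraries. The count model of the study was not run, since peak lists hold no read totals. The fit was tested on simulated data. Motif letters were searched in hg38 and RefSeq promoters, and peaks on the 23 chromosomes used ended within those of the reference.

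The members and lists were chosen with earlier results of these data known. Named genes were the 10 members, genes sharing their peaks, the 2 most alike genes of RB1, MYBL2 and FOXM1, and up to 6 gained or called genes per list in list order. Replicates were 2 per group, described by the study as biological replicates of 1 experiment. Alternatives were a stricter q, equal list lengths, other promoter windows, centring, fold enrichment, a fragment minimum of 10, merged regions, a replicate block, no variance trend and leaving out each library.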

Additional observations from a re-analysis of the deposited data

How the results depend on the processing

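Presence calls kept their counts under narrower promoters, summits inside the promoter, canonical starts and leaving out each library, where members bound stayed at 9 and 9 under DMSO and at 10 and 10 under INX-315, members gained at 1 and 1 and members lost at 0 and 0. With equal numbers of top peaks per library, members gained fell to 0 in OVCAR-3 and 0 in Kuramochi, since RBL2 was not among those peaks. When a library was left out, the members called higher in OVCAR-3 numbered 6 to 9, those in Kuramochi 4 to 9. They were 5 and 4 on the fold enrichment scale and 0 and 0 with centring. Members called higher under INX-315 over both lines numbered 8 to 9 and called lower 0 when a library was left out. Centring left 1 member higher and 3 lower, and turned the direction of RB1 (-0.14), RBL1 (-0.62), LIN52 (-0.76), MYBL2 (-0.34) and FOXM1 (-0.68), by its construction relative to a median rise of 1.64. TFDP1 (0.12), LIN9 (0.24) and LIN54 (0.09) no longer passed there. With a replicate block the 9 members stayed called and 3655 genes were called higher, and 1 gene was lower in the difference between the lines. Deviations from the group means correlated over genes at -0.048 in OVCAR-3 and -0.015 in Kuramochi. A correlation over genes does not register a shift shared by all genes of a library. Whether the replicate numbers pair the samples was therefore not settled.

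The starting level of the lines was the least stable. Members higher in Kuramochi under DMSO numbered 0 on the fold enrichment scale and 0 to 2 when a library was left out, the MYBL2 value then ranging from 1.19 to 1.80 and passing without either OVCAR-3 INX-315 library or Kuramochi DMSO replicate 1. Members lower numbered 1 with centring, TFDP2 (-0.76, adjusted p = 0.029), and 0 otherwise. Genes higher ranged from 5 (fold enrichment) to 640 (without Kuramochi DMSO replicate 1), against 218, and genes lower from 0 (fold enrichment) to 573 (centring), against 53. With centring 496 were higher, so the excess of higher calls turned over. Where leaving out a library left 1 in its group, that library was taken to vary like the others. The cause was not tested. Precision is limited by 2 libraries per group and by 5 to 152 fragments at a member summit.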
